A study of Mus musculus with 12 samples.

Results

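Leukocyte, macrophage and class II antigen presentation genes were measured by bulk RNA sequencing in sorted mouse mammary myoepithelial cells and brown adipocytes. The set holds 9 of the 38924 genes in the count files, taken by name: Ptprc, Lyz2, Csf1r, Cd68, Tlr2, Cd74, H2-Aa, H2-Ab1 and H2-Eb1. All samples came from C57BL/6 mice that carry the ROSAmTmG reporter, which turns on membrane GFP in any cell that has had Cre recombinase and in its descendants. GFP therefore marks cells of a Cre lineage and not present activity of the driver gene. The 6 groups held 2 libraries each, 12 in all. From Ucp1-iCre mice came GFP-positive myoepithelial cells, GFP-negative myoepithelial cells and GFP-positive brown adipocytes. The same 3 groups came from Myf5-Cre mice. Myoepithelial cells were sorted at day 10 of lactation as lineage-negative, CD24-positive and CD29-high, and brown adipocytes came from 8-week-old virgin females. Which antibodies made up the lineage gate is not stated. Tissue, physiological state and age therefore cannot be told apart between the cell types. The labels do not say whether the 2 libraries of a group came from separate animals, and the spread behind each p-value may therefore be technical.

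Class II molecules are surface proteins that show peptides to helper T cells. An alpha and a beta chain pair up, and the invariant chain Cd74 holds the groove closed until the complex reaches the endosome. Dendritic cells, macrophages and B cells carry them at rest, and many epithelial cells can be brought to do so by interferon gamma through the coactivator Ciita. H2-Aa and H2-Ab1 encode the alpha and beta chains of I-A, and H2-Eb1 encodes the beta chain of I-E, whose alpha chain gene is defective in C57BL/6 mice. Ptprc encodes CD45, the phosphatase on the surface of nearly all blood-forming cells. Lyz2 encodes the lysozyme of myeloid cells, Csf1r the receptor on which macrophages depend for survival, and Cd68 a lysosomal membrane protein rich in macrophages. Tlr2 encodes a receptor for bacterial lipoproteins that epithelial cells can also carry.

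The class II genes share a compact promoter design, so the stretch before the transcription start of 2 of them is printed beside that of Tlr2, a gene at 0 in a whole group of libraries. The sequences are from RefSeq (GRCm38.p6), 150 bases that end just before the start, 5′ to 3′ on the gene's strand. H2-Aa lies at chr17:34287824-34287973 on the minus strand, H2-Eb1 at chr17:34305717-34305866 on the plus strand and Tlr2 at chr3:83841609-83841758 on the minus strand. Capitals mark the X box core GCAAC, the Y box core CTGATTGG and the Ets core GGAAGT, searched on both strands.
H2-Aa: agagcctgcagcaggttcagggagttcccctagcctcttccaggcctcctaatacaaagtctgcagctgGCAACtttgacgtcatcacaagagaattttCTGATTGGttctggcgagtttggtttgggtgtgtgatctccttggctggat
H2-Eb1: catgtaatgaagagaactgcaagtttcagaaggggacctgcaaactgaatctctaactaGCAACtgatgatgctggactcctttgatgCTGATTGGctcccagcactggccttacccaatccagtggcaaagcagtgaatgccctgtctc
Tlr2: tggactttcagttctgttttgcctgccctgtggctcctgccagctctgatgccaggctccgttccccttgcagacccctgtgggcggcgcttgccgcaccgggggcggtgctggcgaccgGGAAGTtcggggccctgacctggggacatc
In H2-Aa the X box core stood 25 bases before the Y box core, and in H2-Eb1 24 bases before it. That order, with 15 to 40 bases between the cores, occurred in 34 of the 32851 mouse promoters of the table (0.103%) within 250 bases of the start. Alone, the Y box core was in 3.83% of promoters, the X box core in 29.9% and the Ets core in 19.7%. The pair of cores did not occur in the windows of Tlr2, Ptprc, Lyz2 or Cd68. These windows follow the RefSeq starts. In GENCODE M21, used for exon lengths, Tlr2 and Ptprc start further upstream. The printed Tlr2 stretch and the Ptprc windows lie inside those gene models. Of the 9 genes, 6 had a promoter in the table. Cd74, H2-Ab1 and Csf1r had none and were not searched.

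Library totals ran from 11027738 to 32956480 counts, and a gene at 0 lies under 0.0910 to 0.272 CPM (counts scaled to a common library size, here the raw total), the value of 3 counts. Below, CPM is scaled by TMM factors, and floors and counting intervals cover counting error only. The sort labels were checked on marker lists: 11 myoepithelial genes summed to 1571 to 19532 CPM in the 8 mammary libraries and 25.2 to 200.2 CPM in brown adipocyte libraries. The 10 brown adipocyte genes summed to 2510 to 15890 CPM in mammary libraries and 17507 to 35724 CPM in brown adipocytes. Luminal and milk genes were also present in the myoepithelial gate, with 16151 to 117927 CPM over 11 genes. Endothelial genes were present as well. The 10 listed summed to 6701 and 9312 CPM in Ucp1 GFP-positive cells, above the myoepithelial sums of 1571 and 3453 CPM there. They summed to 1489 to 6457 CPM in the other mammary libraries and 132 to 4674 CPM in brown adipocytes. In Myf5 GFP-positive cells, 10 fibroblast genes summed to 19607 and 12217 CPM, above the myoepithelial sums of 3405 and 5123 CPM there. Fibroblast genes summed to 203 to 3677 CPM in the other mammary libraries. The part of endothelial cells and fibroblasts in the levels below was not tested. Both Ucp1 GFP-positive myoepithelial libraries stood apart, with 10909 and 10560 genes counted against 13761 to 19794 in the other 10, and a replicate correlation of r = 0.731 against 0.879 to 0.990 (log2 of CPM + 1, across 16953 genes, which are not independent replicates). All 9 genes passed the filter on low counts.

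Cd74, H2-Aa, H2-Ab1 and H2-Eb1 were higher in every mammary library than in every brown adipocyte library. Cd74 had 621 and 480.2 CPM in Ucp1 GFP-positive and 1169 and 1119.5 CPM in Ucp1 GFP-negative myoepithelial cells. It had 357 and 587 CPM in Myf5 GFP-positive and 1562 and 1237 CPM in Myf5 GFP-negative cells. In brown adipocytes it had 43.0 and 10.7 CPM in the Ucp1 line and 1.34 and 2.02 CPM in the Myf5 line. All 8 mammary libraries lay above all 4 brown adipocyte libraries, and all 4 GFP-negative libraries above all 4 GFP-positive myoepithelial ones. Of all genes tested, 7.54% were lower in all GFP-positive than in all GFP-negative myoepithelial libraries. In GFP-negative myoepithelial libraries, 19.4% were higher without overlap than in brown adipocytes. The share for all 8 mammary libraries was not computed. The 2 GFP-positive myoepithelial groups overlapped, while the other neighbours in the order of levels did not.

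**Figure D1:**
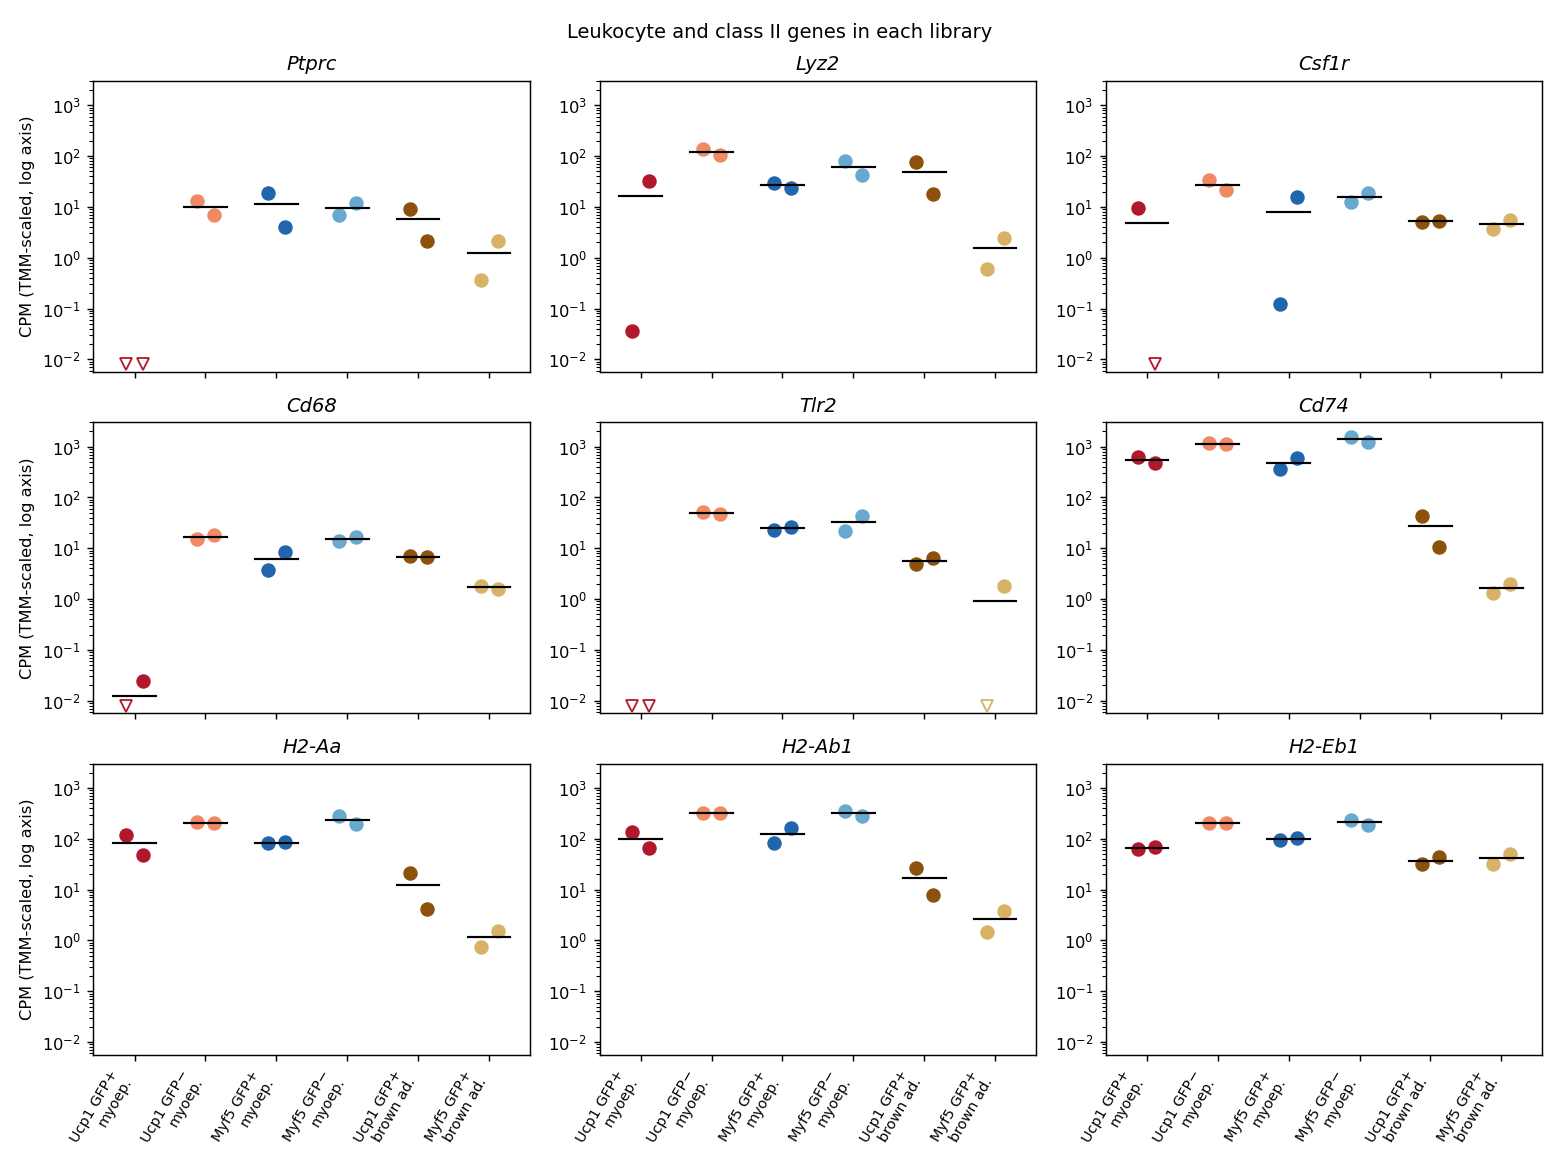
CPM of each gene in each library (log axis), with the 2 libraries of a group side by side, a bar at the group mean, and open triangles for libraries at 0 counts, drawn at the bottom of the axis. Ptprc and Tlr2 are at 0 in both Ucp1 GFP-positive myoepithelial libraries, where Cd74 reads 621 and 480.2 CPM.

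Per kilobase of exon, Cd74 was the most abundant of the 9 genes in each mammary library, at 213 to 930.2 CPM per kb. H2-Aa followed Cd74 in its pattern and had 119.7 and 49.1 CPM in Ucp1 GFP-positive against 212 and 207 CPM in Ucp1 GFP-negative cells. In the Myf5 line it had 81.2 and 85.7 CPM in GFP-positive against 281 and 199 CPM in GFP-negative cells. Its partner chain H2-Ab1 had 134 and 65.4 CPM in Ucp1 GFP-positive against 321 and 327 CPM in Ucp1 GFP-negative cells, and 83.0 and 162 CPM in Myf5 GFP-positive against 351 and 284 CPM in Myf5 GFP-negative cells. For both I-A chains, GFP-positive cells lay below GFP-negative cells without overlap in either line, as did 48.1% of all genes tested in the Ucp1 line and 20.2% in the Myf5 line.

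Leukocyte and macrophage genes gave a different picture in the Ucp1 GFP-positive libraries. Ptprc had 0 counts in both, against 433 and 227 counts (13.0 and 6.94 CPM) in Ucp1 GFP-negative cells. Tlr2 likewise had 0 counts in both, against 1691 and 1536 counts (50.8 and 46.9 CPM). Cd68 had 0 and 1 count, against 508 and 609 counts (15.3 and 18.6 CPM). Lyz2 and Csf1r were split between the 2 libraries: Lyz2 had 1 and 1357 counts (0.0368 and 32.9 CPM) and Csf1r 264 and 0 counts (9.70 CPM and 0). In Ucp1 GFP-negative cells Lyz2 had 135 and 104 CPM and Csf1r 33.3 and 21.2 CPM. All 9 genes were lower in both Ucp1 GFP-positive libraries than in both GFP-negative ones, as were 48.1% of all genes tested.

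The first comparison asked how the genes differ with the Ucp1-iCre lineage label within the myoepithelial gate. Of the 9, 4 were lower in GFP-positive than in GFP-negative cells past the threshold of 0.05 and none was higher, where 14.0% of the 16953 genes tested were called lower. The median log2 ratio of the 9 was -2.49, with empty genes at their bound, and that of all genes -0.69. Tlr2 was at least 1115-fold lower (edgeR quasi-likelihood test, Benjamini-Hochberg adjusted p = 0.00483), set against 3 counts over the empty group. Ptprc was at least 228-fold lower on the same floor (edgeR adjusted p = 0.00842). Cd68, with 1 count over both libraries, was 1158-fold lower with a 95% exact counting interval of 207 to 45785-fold (edgeR adjusted p = 0.00182). H2-Eb1 had 63.9 and 70.0 CPM in GFP-positive cells against 205 and 209 CPM in GFP-negative cells (log2 -1.63, SE 0.407, edgeR adjusted p = 0.0282).

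The other class II genes were lower by similar amounts without passing the threshold: Cd74 at log2 -1.06 (SE 0.598), H2-Aa at -1.31 (SE 0.732) and H2-Ab1 at -1.70 (SE 0.685), with edgeR adjusted p of 0.274, 0.268 and 0.125. Lyz2 (log2 -2.86, SE 1.76) and Csf1r (-2.49, SE 2.21) had wide errors, with edgeR adjusted p of 0.321 and 0.514. With limma-voom Cd74, H2-Aa, H2-Ab1 and Lyz2 passed (limma-voom adjusted p = 0.0131, 0.024, 0.007 and 0.0305). Over all genes, limma-voom called 5146 in either direction for this label, where edgeR called 2423. Cd74 also passed with the groups of this comparison fitted alone (edgeR adjusted p = 0.048). Left out in turn, 3 libraries ended the H2-Eb1 call: Ucp1 GFP-positive replicate 1 (edgeR adjusted p = 0.0634) and Ucp1 GFP-negative replicates 1 and 2 (edgeR adjusted p = 0.137 and 0.144), where the lone library of a group is assumed to vary like the others. Over the same fits the edgeR adjusted p of H2-Eb1 ran from 0.0302 to 0.144, and with no filter on low counts the call was also lost (edgeR adjusted p = 0.075). Without Ucp1 GFP-positive replicate 2, Lyz2 passed (edgeR adjusted p = 0.000961), and without replicate 1, Csf1r passed (edgeR adjusted p = 0.0177).

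**Figure D2:**
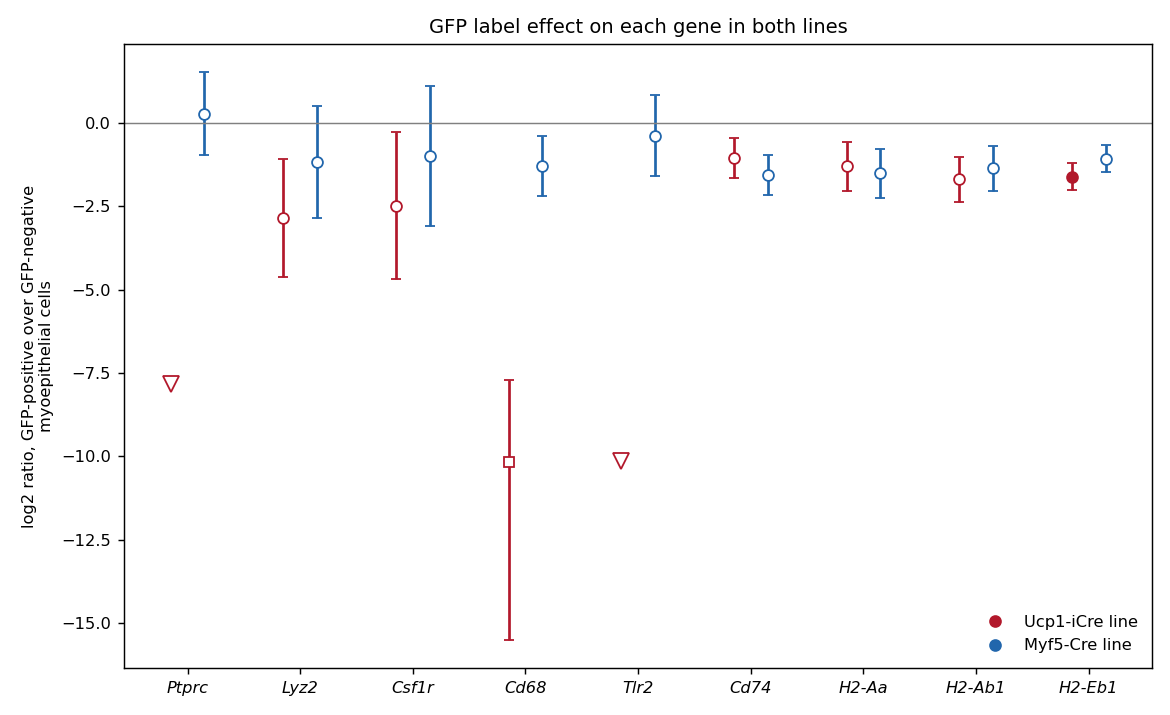
Log2 ratio of GFP-positive over GFP-negative myoepithelial cells for each gene in the Ucp1-iCre line and the Myf5-Cre line, as circles with 1 SE and filled where the edgeR adjusted p is under 0.05. Open triangles are bounds set by 3 counts over an empty group (Ptprc and Tlr2), and the square is Cd68 at 1 count with its 95% counting interval; all 3 were called. The class II genes lie between -1.06 and -1.70 in both lines.

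Genes at 0 were common in these 2 libraries. Among genes with 5 to 10 CPM in Ucp1 GFP-negative cells, the range of Ptprc (mean 9.98 CPM), 29.6% were at 0 in both Ucp1 GFP-positive libraries and 1.13% in both Myf5 GFP-positive ones. The share was 13.7% at 10 to 20 CPM, where Cd68 lies (16.9 CPM), and 3.18% at 20 to 50 CPM, where Tlr2 lies (48.9 CPM). At 100 to 500 CPM, where H2-Aa, H2-Ab1, H2-Eb1 and Lyz2 lie, it was 0%, and 0.148% and 0.445% of genes were at 0 in the first and second library alone. The part of this loss of detected genes in the Ptprc, Cd68 and Tlr2 results was not tested. In bulk RNA, fewer cells of a type and less RNA per cell cannot be told apart.

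**Figure D3:**
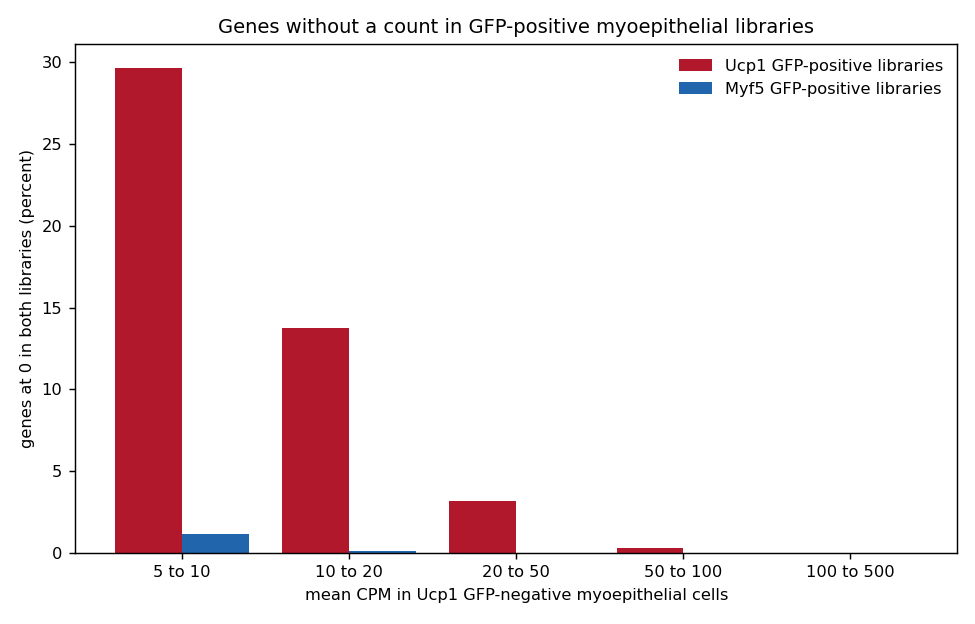
Share of genes with 0 counts in both GFP-positive libraries of a line (bars, percent), by the mean CPM of the gene in Ucp1 GFP-negative myoepithelial cells. In Ucp1 GFP-positive cells the share is 29.6% at 5 to 10 CPM and 3.18% at 20 to 50 CPM, against 1.13% and 0% in Myf5 GFP-positive cells.

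Other genes of the same pathways were read in lists, against the 14.0% of all genes called lower. Of 15 further leukocyte surface and cytoskeleton genes, 3 fell in Ucp1 GFP-positive cells and none rose: Lsp1, Rac2 and Itgal, all at 0 counts in both libraries and at least 160.3-fold, 107-fold and 89.4-fold lower (edgeR adjusted p = 0.00228, 0.0398 and 0.0414). Of 14 class II loading and transcription genes, 2 fell, a share near that of all genes. H2-DMb1, a chain of the peptide editor H2-M, was at 0 in both libraries against 21.3 ± 1.15 CPM (SD, n = 2) in GFP-negative cells, at least 485-fold lower (edgeR adjusted p = 0.00131). H2-Ob, a chain of its inhibitor H2-O, was at least 31.4-fold lower (edgeR adjusted p = 0.0367).

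Of 24 further macrophage and monocyte genes, none passed in either direction in the Ucp1 line. Their summed level was 472 and 252 CPM in GFP-positive against 596 and 554 CPM in GFP-negative cells, and 9 and 11 of the 24 were at 0 in the GFP-positive libraries and none in the GFP-negative ones. C1qb, a complement chain made mainly by macrophages, had 32.1 and 33.9 CPM in GFP-positive against 63.7 and 69.6 CPM in GFP-negative cells, and Adgre1, which encodes the macrophage marker F4/80, was at 0 in both GFP-positive libraries against 9.08 and 5.23 CPM (both named after their values were seen). Of 11 tested T and NK cell genes 3 fell (Thy1, Trac and Nkg7), and of 11 tested B and plasma cell genes 2 fell (Ighm and Cd79a), each at 0 counts in both GFP-positive libraries. Thy1 is also on the list of fibroblast genes and is counted in both lists. T and NK cell genes summed to 5.03 and 19.8 CPM in GFP-positive against 23.3 and 26.8 CPM in GFP-negative cells, with 15 and 14 of 16 at 0 in the GFP-positive libraries. Of 7 tested dendritic cell genes, Itgax fell to 1 count over both libraries against 624 counts (edgeR adjusted p = 0.0344). The dendritic cell list as a whole had a median log2 ratio of 0.56, with 4 of the 7 above 0, and its 10 genes summed to 335 and 247 CPM in GFP-positive against 173 and 173 CPM in GFP-negative cells. Of 10 fibroblast genes 5 fell with the Ucp1 label, with sums of 829 and 203 CPM in GFP-positive against 3677 and 2977 CPM in GFP-negative cells. None of the 16 class I genes was called. The part of these cell types in the class II level was not tested.

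The same question was asked of the Myf5-Cre lineage label. None of the 9 genes passed the threshold between GFP-positive and GFP-negative myoepithelial cells, and none of the 16953 genes tested did either (0% called by edgeR). At an unadjusted p under 0.05 edgeR counted 1573 genes, while DESeq2 called 724 and limma-voom 567 genes, of which Cd74 was the one member (limma-voom, lower). The 4 class II genes were lower in both GFP-positive libraries than in both GFP-negative ones, as were Lyz2 and Cd68. That makes 6 of the 9, against 20.2% of all genes. Cd74 stood at log2 -1.57 (SE 0.605), H2-Aa at -1.52 (SE 0.736), H2-Ab1 at -1.38 (SE 0.679) and H2-Eb1 at -1.08 (SE 0.401), with edgeR adjusted p of 0.426 to 0.606. H2-Eb1 had 94.9 and 104 CPM in GFP-positive against 235 and 187 CPM in GFP-negative cells. In simulated counts the edgeR fit called 0 of 100 genes changed 4-fold in this comparison and 10 of 100 changed 16-fold. The lack of edgeR calls therefore does not show that levels were alike.

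Leukocyte and macrophage genes were present in Myf5 GFP-positive cells. Ptprc had 18.7 and 4.01 CPM in GFP-positive against 7.05 and 11.9 CPM in GFP-negative cells, so the groups overlapped (log2 0.26, SE 1.24, edgeR adjusted p = 1). Tlr2 had 23.3 and 26.7 CPM against 22.0 and 43.6 CPM in GFP-negative cells and overlapped as well (log2 -0.39, SE 1.21, edgeR adjusted p = 1). Cd68 had 3.74 and 8.62 CPM against 14.2 and 16.5 CPM in GFP-negative cells, and Lyz2 29.4 and 23.5 CPM against 78.4 and 42.0 CPM. Csf1r was split again, at 2 and 442 counts (0.125 and 15.6 CPM) against 12.7 and 18.7 CPM in GFP-negative cells. In the same libraries, 10 fibroblast genes summed to 19607 and 12217 CPM in GFP-positive against 908 and 573 CPM in GFP-negative cells. Their part in the class II levels was not tested.

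The difference of the 2 label effects, Ucp1 minus Myf5, was tested in the same fit. It passed for Ptprc, Cd68 and Tlr2, each lower with the Ucp1 label relative to the Myf5 label, where 10.7% of all genes were called lower. The edgeR adjusted p was 0.0155 for Ptprc, 0.00639 for Cd68 and 0.0102 for Tlr2. The Ptprc call was lost without Myf5 GFP-negative replicate 1 (edgeR adjusted p = 0.0847), Myf5 GFP-negative replicate 2 (0.0705) or Ucp1 GFP-negative replicate 1 (0.0505), over a range of 0.0116 to 0.0847, and the Tlr2 call without Myf5 GFP-negative replicate 1 (0.0724) or 2 (0.0595), over a range of 0.00323 to 0.0724. For the class II genes the difference was small against its error: Cd74 0.51 (SE 0.836), H2-Aa 0.21 (SE 1.02), H2-Ab1 -0.33 (SE 0.943) and H2-Eb1 -0.54 (SE 0.562) on the log2 scale. With the label effects of both lines pooled as their mean in the same fit, the called genes were Ptprc, H2-Eb1, Cd68 and Tlr2. All 4 were lower with GFP on this mean, where 11.4% of all genes were called lower. For Ptprc and Tlr2 the GFP-positive and GFP-negative libraries overlapped, and the Myf5 line alone stood at log2 0.26 and -0.39. In the pooled comparison H2-Eb1 was at log2 -1.36 (SE 0.286, edgeR adjusted p = 0.0168). In the same comparison 7 of 11 myoepithelial and 7 of 11 luminal and milk genes were also called lower with GFP. Luminal and milk genes summed to 20765 and 23966 CPM in Ucp1 GFP-positive against 104716 and 117927 CPM in Ucp1 GFP-negative cells, and to 37155 and 16151 CPM in Myf5 GFP-positive against 110626 and 57754 CPM in Myf5 GFP-negative cells. Myoepithelial genes summed to 1571 and 3453 CPM in Ucp1 GFP-positive against 11370.1 and 13188 CPM in Ucp1 GFP-negative cells, and to 3405 and 5123 CPM in Myf5 GFP-positive against 10274 and 19532 CPM in Myf5 GFP-negative cells. The part of these markers in the label results was not tested. The pooled H2-Eb1 call ended without Myf5 GFP-positive replicate 1 (edgeR adjusted p = 0.0585) or Ucp1 GFP-negative replicate 1 or 2 (0.0806 and 0.082), and the Ptprc call without Myf5 GFP-negative replicate 2 (0.0543) or Ucp1 GFP-negative replicate 1 or 2 (0.0675 and 0.0523). The Tlr2 call ended without Myf5 GFP-positive replicate 1 (edgeR adjusted p = 0.0512).

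Set directly against each other, Ucp1 and Myf5 GFP-positive myoepithelial cells differed in 3 of the 9 genes, with 15.2% of all genes called lower in Ucp1 cells. Ptprc was at least 259-fold lower (edgeR adjusted p = 0.00686), Tlr2 at least 571-fold lower (edgeR adjusted p = 0.00538), and Cd68 469-fold lower with a 95% exact counting interval of 83.6 to 18590-fold (edgeR adjusted p = 0.00245). Fitted on these 2 groups alone, none of the 3 passed (edgeR adjusted p = 0.131 to 0.137). Among the class II genes, only H2-Eb1 did not overlap, at 63.9 and 70.0 CPM in Ucp1 against 94.9 and 104 CPM in Myf5 cells, without a call (edgeR adjusted p = 0.354). Of all genes tested, 29.9% were lower in Ucp1 cells without overlap. In GFP-negative cells of the 2 lines none of the 9 genes passed and neither did any of the 16953 genes (0% called by edgeR, 604 at an unadjusted p under 0.05, with 43 called by DESeq2 and 0 by limma-voom).

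The ratio of the summed class II genes to the summed leukocyte and macrophage genes put these patterns in 1 number. It was 96.3 and 20.2 in Ucp1 GFP-positive and 7.70 and 9.44 in Ucp1 GFP-negative myoepithelial cells. In the Myf5 line it was 8.18 and 11.97 in GFP-positive and 18.1 and 14.4 in GFP-negative cells. In brown adipocytes it was 1.17 and 1.73 in the Ucp1 line and 5.43 and 4.29 in the Myf5 line. GFP-positive cells had the higher ratio in the Ucp1 line and the lower ratio in the Myf5 line, without overlap in either, and this difference of sums was not tested.

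**Figure D4:**
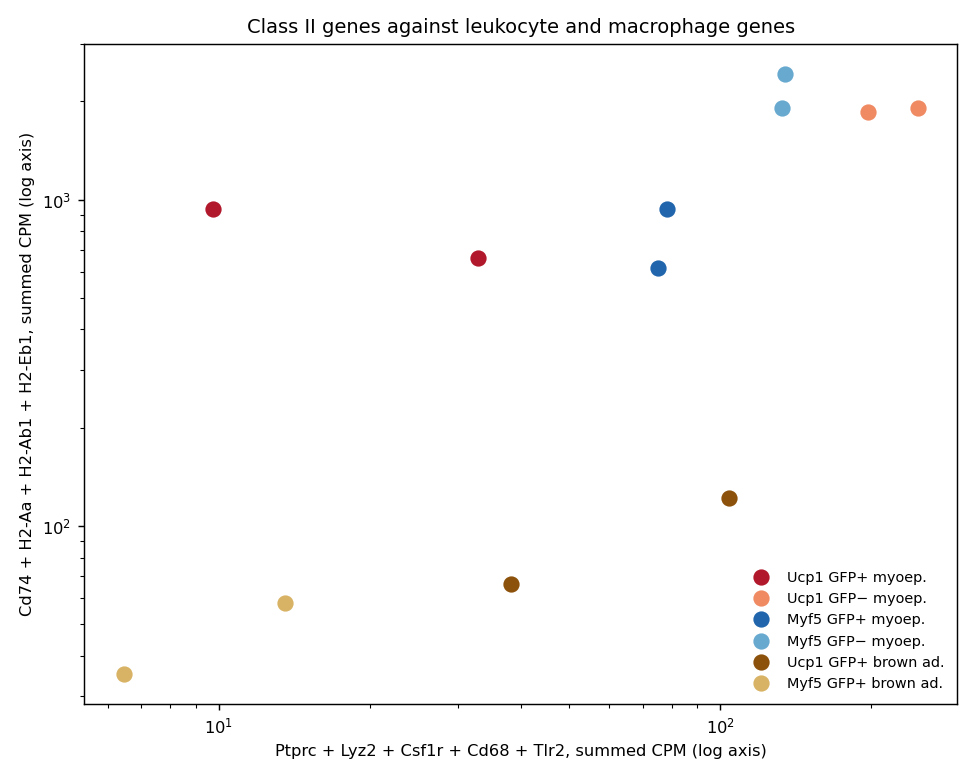
Summed CPM of the 4 class II genes (vertical, log axis) against summed CPM of Ptprc, Lyz2, Csf1r, Cd68 and Tlr2 (horizontal, log axis), 1 point per library, coloured by group. The 2 Ucp1 GFP-positive myoepithelial libraries lie at 938 and 665 CPM of class II with 9.74 and 32.9 CPM of the other genes, while the Ucp1 brown adipocyte libraries lie at 122 and 66.2 CPM with 104 and 38.3 CPM.

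GFP-negative myoepithelial cells were next set against brown adipocytes over both lines, with 4 libraries a side. Of the 9 genes, 6 were higher in myoepithelial cells and none lower, where 14.6% of all genes were called higher. The median log2 ratio of the 9 was 3.29 and that of all genes 0.35. Cd74 stood at log2 7.55 (SE 0.561, edgeR adjusted p = 8.57e-05), H2-Aa at 5.88 (SE 0.636, edgeR adjusted p = 0.000415) and H2-Ab1 at 5.57 (SE 0.577, edgeR adjusted p = 0.000343). H2-Eb1 stood at log2 2.41 (SE 0.296, edgeR adjusted p = 0.000719). Tlr2 (log2 4.12, SE 0.982, edgeR adjusted p = 0.0169) and Cd68 (log2 2.24, SE 0.659, edgeR adjusted p = 0.0335) were also higher, Cd68 in all 4 myoepithelial libraries at 14.2 to 18.6 CPM against 1.56 to 7.03 CPM in brown adipocytes. The Cd68 call ended in 8 of 12 fits that left out 1 library, when any 1 of these 8 libraries was missing (edgeR adjusted p up to 0.130), and also with RLE factors (0.0503), no filter (0.058) and the replicate block (0.0525), and the Tlr2 call in 5 of 12, those without Ucp1 GFP-negative replicate 1 or 2, Myf5 GFP-negative replicate 2 or either Ucp1 brown adipocyte library (edgeR adjusted p up to 0.0935). Without the 2 Ucp1 GFP-positive libraries the same 6 genes and Lyz2 passed.

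Of the 24 macrophage and monocyte genes, 11 were higher in GFP-negative myoepithelial cells than in brown adipocytes and none lower, among them C1qb at 67.3 ± 5.23 against 2.71 ± 2.52 CPM and Tyrobp, a signalling adaptor of myeloid cells, at 12.1 ± 3.24 against 1.04 ± 1.41 CPM (SD, n = 4 each, edgeR adjusted p = 0.000449 and 0.00298). Of 14 class II loading and transcription genes 3 were higher, Ctss, H2-DMb1 and Cd80, and Rfxank was lower. Ctss, the cathepsin that trims the invariant chain, averaged 95.2 ± 31.05 against 2.36 ± 3.48 CPM (SD, n = 4 each, edgeR adjusted p = 0.00056). Ciita, named for its role, was low throughout, at 0 to 3.86 CPM in mammary libraries and 0.510 to 1.71 CPM in brown adipocytes.

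GFP-positive myoepithelial cells were set against brown adipocytes of their own line. In the Ucp1 line 3 genes were higher and 3 lower, with 5.34% of all genes called higher and 22.5% lower. Cd74 (log2 4.36, SE 0.680, edgeR adjusted p = 0.00225), H2-Aa (2.76, SE 0.772, edgeR adjusted p = 0.0274) and H2-Ab1 (2.53, SE 0.707, edgeR adjusted p = 0.0274) were higher in myoepithelial cells. Ptprc and Tlr2 were at least 129.6-fold and 129-fold lower (edgeR adjusted p = 0.00785 and 0.00837), and Cd68 was 469-fold lower with a 95% exact counting interval of 82.9 to 18660-fold (edgeR adjusted p = 0.0019). Fitted on these 2 groups alone, none of the 6 passed (edgeR adjusted p = 0.0568 to 0.188), and the H2-Aa and H2-Ab1 calls also ended in 4 of 12 fits that left out 1 library, those without Ucp1 GFP-positive replicate 1, Ucp1 GFP-negative replicate 1 or 2, or brown adipocyte replicate 2 of the Ucp1 line (edgeR adjusted p up to 0.112 and 0.147), and with limma-voom (adjusted p = 0.0523 and 0.0637).

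In the Myf5 line 3 genes were higher in myoepithelial cells and none lower, with 10.9% of all genes called higher. Cd74 stood at log2 8.12 (SE 0.817, edgeR adjusted p = 0.000761), H2-Aa at 6.17 (SE 0.919, edgeR adjusted p = 0.00273) and H2-Ab1 at 5.54 (SE 0.819, edgeR adjusted p = 0.00265). H2-Eb1 and Tlr2 came close, with edgeR adjusted p of 0.0538 and 0.0507, and all 9 genes but Csf1r were higher without overlap, against 33.1% of all genes. Without the 2 Ucp1 GFP-positive libraries in the fit, 7 genes passed, all but Ptprc and Csf1r.

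Between the 2 brown adipocyte lines, Cd74 alone of the 9 genes passed, higher in the Ucp1 line, where 1.29% of all genes were called higher (log2 3.99, SE 0.687, edgeR adjusted p = 0.0353). H2-Aa had 20.9 and 4.08 CPM in Ucp1 against 0.732 and 1.56 CPM in Myf5 brown adipocytes, and H2-Ab1 26.6 and 7.99 against 1.46 and 3.76 CPM, neither of them called (edgeR adjusted p = 0.0813 and 0.113). Lyz2 had 78.0 and 17.7 CPM in Ucp1 against 0.610 and 2.47 CPM in Myf5 brown adipocytes, and Ptprc 9.24 and 2.13 against 0.366 and 2.11 CPM. For 7 of the 9 genes both Ucp1 libraries lay above both Myf5 libraries, against 31.3% of all genes, and the first Ucp1 library was the higher for 6 of these 7, all but Tlr2. The Cd74 call rested on few libraries: it ended in 9 of 12 fits that left out 1 library (edgeR adjusted p up to 0.216), all but those without Ucp1 GFP-positive myoepithelial replicate 1 or 2 or Ucp1 brown adipocyte replicate 2, and also with limma-voom (adjusted p = 0.247).

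Interferon response genes were read in the same brown adipocytes. Of 19, 4 were higher in the Ucp1 line and none lower: Irf1, a transcription factor induced by interferon gamma, at 528 ± 130.03 against 86.7 ± 7.83 CPM, and Ifit3, Isg15 and Gbp2 (SD, n = 2 each, edgeR adjusted p = 0.026 to 0.0479). Among 16 class I genes H2-T23 was higher, at 201 ± 87.0 against 21.4 ± 5.45 CPM (edgeR adjusted p = 0.0358). Of 15 leukocyte genes Arhgdib was higher, and of 24 macrophage genes Mertk. All of these calls were lost without Ucp1 GFP-negative myoepithelial replicate 1 or 2, Myf5 brown adipocyte replicate 1 or Ucp1 brown adipocyte replicate 1, where 0 genes of the whole table were called by edgeR. In the same libraries the 10 endothelial genes summed to 4674 and 2636 CPM in Ucp1 against 132 and 564 CPM in Myf5 brown adipocytes, and the leukocyte list to 136 and 71.6 against 11.7 and 24.9 CPM. Their part in the Cd74 result was not tested.

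H2-Eb1 shared only part of the pattern of its neighbours on chromosome 17. Like them, it was higher in every mammary library (63.9 to 235 CPM) than in every brown adipocyte library, but by less. Unlike them, it did not separate the 2 brown adipocyte lines. It had 31.3 and 43.4 CPM in Ucp1 and 31.6 and 50.8 CPM in Myf5 brown adipocytes, so the 2 lines overlapped. Per kilobase, it made up 50.4% and 84.2% of the 3 H2 genes in Ucp1 and 95.5% and 93.3% in Myf5 brown adipocytes, against 28.2% to 48.4% in the 8 mammary libraries. The share averaged 80.9 ± 20.9% (SD, n = 4) in brown adipocytes and 38.8 ± 6.51% (SD, n = 8) in myoepithelial cells, with no overlap. The share was chosen for description after the values were seen, so no p-value is given for it. H2-Eb1 shares 1.66% of its 31-base sequences with other genes, H2-Eb2 and H2-Ab1.

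**Figure D5:**
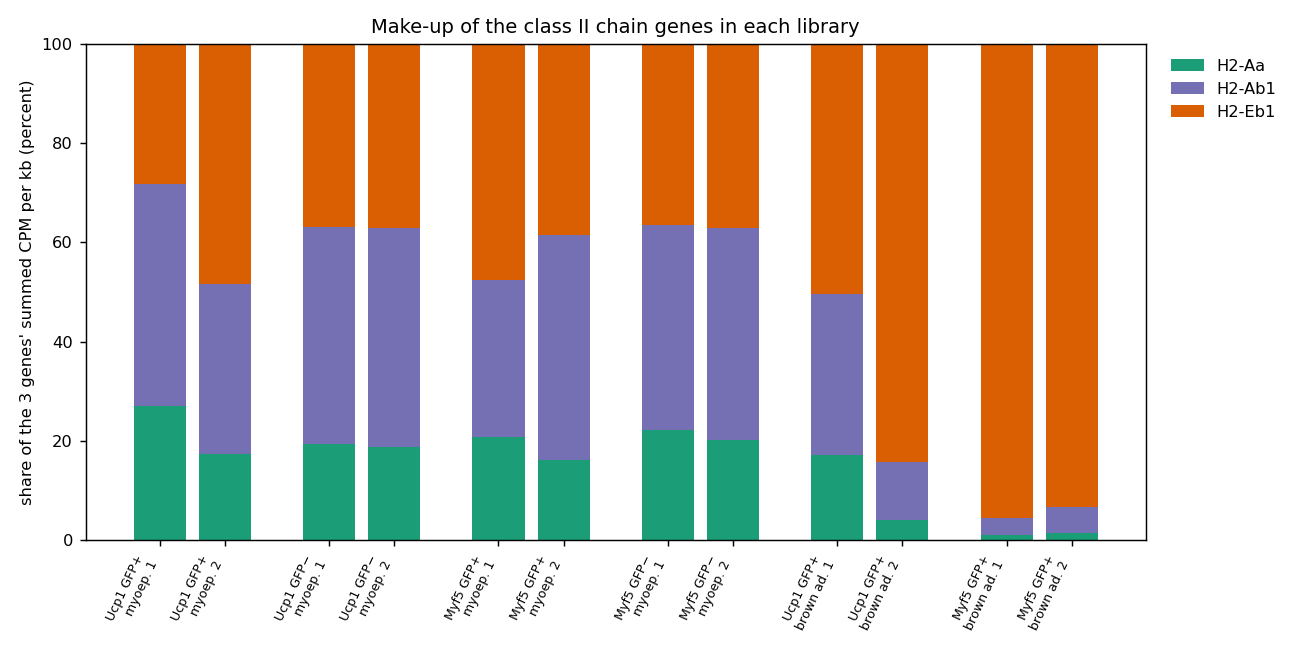
Make-up of the class II chain genes in each library: H2-Aa, H2-Ab1 and H2-Eb1 as percent of their summed CPM per kilobase of exon (stacked bars). H2-Eb1 fills 28.2% to 48.4% of the bar in mammary libraries and 50.4% to 95.5% in brown adipocytes.

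Across the 12 libraries, Cd74, H2-Aa and H2-Ab1 ran closely together (Pearson r of log2(CPM + 1) 0.987 to 0.995, n = 12, given as a description since the points share groups and depth). H2-Eb1 followed them at r = 0.827 to 0.872. Ptprc ran with Tlr2 (r = 0.885) and Cd68 (r = 0.807), and less with Cd74 (r = 0.387). By the same measure over 12772 genes, Ctss was closest to Cd74 (r = 0.992), H2-Aa (r = 0.992) and H2-Ab1 (r = 0.986), with Csrp1 next for Cd74 and H2-Ab1. The 3 genes closest to H2-Eb1 were Krt19 (r = 0.954), St6gal1 (r = 0.951) and Ap1m2 (r = 0.947), to Cd68 Vwa1 (r = 0.988), Dnm3 and Bik, and to Tlr2 Ctps (r = 0.976), Myof and Tril. Closest to Ptprc were Miga1 (r = 0.963), Phf11b and Cyp39a1, to Lyz2 Dusp26 (r = 0.961), Oas1a and St6galnac3, and to Csf1r Cadm1 (r = 0.944), Mast3 and Cep97.

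Positions are on mm10. Ptprc (ENSMUSG00000026395) lies on chromosome 1 at 138062861 to 138175708, Tlr2 (ENSMUSG00000027995) on chromosome 3 at 83836272 to 83841767, Lyz2 (ENSMUSG00000069516) on chromosome 10 at 117277331 to 117282321 and Cd68 (ENSMUSG00000018774) on chromosome 11 at 69664213 to 69666153. H2-Ab1 (ENSMUSG00000073421, 34257689 to 34269419), H2-Aa (ENSMUSG00000036594, 34282744 to 34287823) and H2-Eb1 (ENSMUSG00000060586, 34305867 to 34316674) lie in this order on chromosome 17. Cd74 (ENSMUSG00000024610, 60803848 to 60812652) and Csf1r (ENSMUSG00000024621, 61100598 to 61132149) lie on chromosome 18. Counts of Lyz2 are uncertain, since 33.3% of its 31-base sequences also occur in Lyz1, which read 0 to 1.38 CPM. Csf1r shares 873 exon bases with the antisense gene Hmgxb3, and without a stated strand setting reads there cannot be told apart.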

How the data were processed

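RNA was amplified with SMART-Seq v4 and sequenced on an Illumina HiSeq instrument, per the labels' protocols. The submitters' processing notes name TopHat, HTSeq, DESeq2 and the build mm10. Their versions, the annotation and the strand setting are not stated there. The authors deposited raw read counts per gene, 1 file per library. Symbols and exon lengths came from GENCODE M21 (mm10) and promoters from RefSeq. Groups followed the labels.

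All 12 libraries entered 1 edgeR 4.0.16 quasi-likelihood fit (R 4.3.3) with a mean per group, TMM factors, filterByExpr at a minimum count of 10 and Benjamini-Hochberg adjustment over the 16953 genes kept, at 0.05. Standard errors were taken as the absolute log2 estimate divided by the root of F. Alternatives were RLE factors, raw totals, milk and mitochondrial genes removed, no filter, DESeq2 1.42.0, limma 3.58.1 (voom), the groups compared alone, the 2 Ucp1 GFP-positive libraries left out, a replicate block and each library left out. The fit was tested on simulated counts for the Myf5 label comparison. It called 0 of 100 genes changed 4-fold, 10 of 100 changed 16-fold and no unchanged gene. Counting intervals used scipy 1.17.1 in Python 3.11.15.

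The 9 genes and the lists were chosen with earlier results of these data known. All 9 genes are named. A list could name up to 4 called genes, ranked by adjusted p, or its 2 most abundant genes if it had no call. By likeness come the 3 genes of highest Pearson r among those with a mean of at least 1 CPM. Genes named outside this rule are marked or named for what they encode.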

Additional observations from a re-analysis of the deposited data

Results flagged for a closer look

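The label effect differed between the lines for 3 genes. Ptprc, Cd68 and Tlr2 were lower with the Ucp1 label relative to the Myf5 label (edgeR adjusted p = 0.0155, 0.00639 and 0.0102 for the difference itself), with 0 or 1 count in each Ucp1 GFP-positive library. Of all genes tested, 10.7% were called lower for this difference. The Ptprc and Tlr2 calls were lost in some fits that left out 1 library.

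The same 3 genes went opposite ways between myoepithelial cells and brown adipocytes of the 2 lines, with no overlap in either line, and this difference was not tested. Without overlap, 41.1% of all genes were lower in the Ucp1 line and 33.1% higher in the Myf5 line. In the Myf5 line none of the 3 passed (edgeR adjusted p = 0.133 for Ptprc, 0.182 for Cd68 and 0.0507 for Tlr2), and the calls in the Ucp1 line were lost with those groups fitted alone (edgeR adjusted p = 0.0568 to 0.0598). Ptprc was lower in Ucp1 GFP-positive myoepithelial cells than in Ucp1 brown adipocytes (difference of means -5.68 CPM) and higher in Myf5 GFP-positive myoepithelial cells than in Myf5 brown adipocytes (10.1 CPM). Cd68 differed by -6.86 CPM in the Ucp1 line and 4.48 CPM in the Myf5 line, and Tlr2 by -5.66 CPM in the Ucp1 line and 24.1 CPM in the Myf5 line. Groups of 2 libraries are too small to mark a single library as standing apart.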

How the results depend on the processing

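Counts of the 9 genes called kept within 1.5 times their value under most settings, and the exceptions follow, with the cause not tested unless the fit had fewer samples. For Myf5 myoepithelial cells against brown adipocytes, 3 genes became 5 with raw totals, 8 with DESeq2 and 7 without the 2 Ucp1 GFP-positive libraries. Between the brown adipocyte lines, 1 gene became 2 with raw totals, 5 with DESeq2, 0 with limma-voom, 2 with the groups alone, 3 without the 2 Ucp1 GFP-positive libraries and 0 with the replicate block. With limma-voom the Myf5 label had 1 gene, the Ucp1 label 8 and the pooled label 8. With the groups alone, Ucp1 myoepithelial cells against brown adipocytes, and the lines in GFP-positive cells, each had 0. With the groups alone, GFP-negative myoepithelial cells against brown adipocytes had 9 in place of 6, and 8227 of all genes in place of 4510. In each exception named here, the count over all genes moved in the same direction as that of the 9. Most of those counts follow.

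Leaving out each library gave 0 to 0 genes for the Myf5 label, 3 to 5 for the Ucp1 label, 1 to 4 for the difference, 2 to 7 pooled, 3 to 7 for Myf5 and 4 to 7 for Ucp1 myoepithelial cells against brown adipocytes, 4 to 7 for GFP-negative cells against brown adipocytes, 3 to 4 for the lines in GFP-positive cells, 0 to 0 in GFP-negative cells and 0 to 3 in brown adipocytes. In the Myf5 label comparison, Ptprc turned to log2 -0.26 with limma-voom, -1.25 without Myf5 GFP-positive replicate 1 and -0.08 without Myf5 GFP-negative replicate 1, and Tlr2 to 0.19 without Myf5 GFP-negative replicate 2, all uncalled. With each library left out, these estimates ran from -1.25 to 0.98 for Ptprc and from -0.81 to 0.19 for Tlr2. The replicate block changed 2 counts, to 5 genes for GFP-negative cells against brown adipocytes (Cd68 lost) and 0 between brown adipocyte lines; same-numbered differences correlated at r = 0.472 in the Myf5 line and 0.0686 in the Ucp1 line, and with 2 pairs the numbers were not taken as pairs. Over all genes, edgeR called 0 with the Myf5 label and 2423 with the Ucp1 label, DESeq2 724 and 4152, and limma-voom 567 and 5146. For the difference of labels 1861 genes became 3096 with DESeq2 and 1187 with the groups alone, and for the pooled label 1956 became 3092 with DESeq2, 3331 with limma-voom and 897 with the groups alone. Against brown adipocytes, 3352 genes in the Myf5 line became 5618 with DESeq2 and 6199 without the 2 Ucp1 GFP-positive libraries, 4717 in the Ucp1 line became 0 with the groups alone, and 4510 in GFP-negative cells became 8227 with the groups alone and 6886 without the 2 Ucp1 GFP-positive libraries. Between lines, 2934 genes in GFP-positive cells became 5382 with DESeq2 and 0 with the groups alone, and 223 in brown adipocytes became 135 with RLE factors, 524 with raw totals, 1486 with DESeq2, 42 with limma-voom, 755 with the groups alone, 929 without the 2 Ucp1 GFP-positive libraries and 76 with the block. Leaving out each library gave 1293 to 4165 genes for the Ucp1 label, 0 to 217 for the Myf5 label, 949 to 3740 for their difference and 811 to 3842 pooled. Against brown adipocytes it gave 1163 to 5867 in the Myf5 line, 2194 to 6400 in the Ucp1 line and 2008 to 6822 in GFP-negative cells. Between lines it gave 1889 to 4983 in GFP-positive cells, 0 to 0 in GFP-negative cells and 0 to 940 in brown adipocytes. Raw totals in place of TMM scaled group levels by 0.674 to 1.25.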

Other observations

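The ligands of Csf1r were measured beside the receptor. Csf1 averaged 169 ± 7.11 CPM in Myf5 GFP-positive and 56.9 ± 10.7 CPM in Myf5 GFP-negative myoepithelial cells, and Il34 74.4 ± 15.7 and 16.1 ± 8.17 CPM (SD, n = 2 each, edgeR adjusted p = 0.295 and 0.342). Csf1 averaged 123 ± 8.37 CPM in Ucp1 GFP-positive and 90.7 ± 18.9 CPM in Ucp1 GFP-negative cells, and Il34 11.8 ± 2.00 and 38.0 ± 9.46 CPM (SD, n = 2 each, edgeR adjusted p = 0.534 and 0.125). The label effect on Il34 was lower in the Ucp1 line than in the Myf5 line (difference of log2 ratios -3.89, SE 0.965, edgeR adjusted p = 0.0302). Against brown adipocytes, GFP-negative myoepithelial cells were higher in both, Csf1 at log2 2.17 (SE 0.299, edgeR adjusted p = 0.0012) and Il34 at log2 2.00 (SE 0.486, edgeR adjusted p = 0.0156).

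The interferon signal transducer Stat2 was higher in Ucp1 GFP-positive than in Ucp1 GFP-negative myoepithelial cells, at 309 ± 37.6 and 74.3 ± 0.0761 CPM (SD, n = 2 each, edgeR adjusted p = 0.00877), while the receptor chain Ifngr2 was lower, at 12.3 ± 2.04 and 44.1 ± 9.46 CPM (edgeR adjusted p = 0.0439). Irak4, a kinase of Toll-like receptor signalling, had 12 counts over both Ucp1 GFP-positive libraries and 1376 counts in GFP-negative ones (edgeR adjusted p = 0.00369). Grn, the lysosomal glycoprotein progranulin, was lower at 90.8 ± 36.5 and 320.0 ± 40.9 CPM (edgeR adjusted p = 0.0281).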
